A study of Mus musculus with 24 samples.

Results

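The 10 Notch pathway genes described here are the receptors Notch1, Notch2 and Notch3, the Deltex genes Dtx1 and Dtx4, the nuclear factors Rbpj and Maml1, and the target genes Hes1, Hey1 and Nrarp. They were chosen by symbol, and all 10 were found among the 24421 gene symbols counted. The data are RNA-seq read counts from 24 libraries of 12 mice. Recipients were wild-type CD45.1+ mice that were lethally irradiated and given bone marrow of poly(I:C)-treated donors on a mixed 129xC57BL/6 background. From each recipient, CD45.2+ common lymphoid progenitors (CLPs, sorted as Lin-IL-7R+) and CD45.2+ B cell progenitors (sorted as B220+IgM-IL-7R+) were taken. The donors had 1 of 4 genotypes: Plcg1+/+Plcg2+/+ (the control), Plcg1-/-Plcg2+/+ (lacking PLCγ1), Plcg1+/+Plcg2-/- (lacking PLCγ2) or Plcg1-/-Plcg2-/- (lacking both), and each genotype had 3 recipients.

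All 4 genotypes carried MxCre and a Rosa-YFP reporter and all donors received poly(I:C), which induces the Mx promoter, so the controls share the Cre and the interferon response. Plcg1 was floxed and deleted by this Cre in haematopoietic and other interferon-responsive cells of the donor. Plcg2 was deleted in the germ line. The recipient keeps its own wild-type stroma. How many donors stand behind the 3 recipients of a genotype is not given in the sources used here, so the spread between recipients may hold little donor variation. The labels give no ages, and the study's methods describe young adult donors.

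Notch receptors are surface proteins that are cut when they bind a Delta or Jagged ligand on a neighbouring cell. The freed intracellular part enters the nucleus and joins the DNA-binding protein RBPJ and a Mastermind coactivator, and this complex turns on genes such as Hes1, Hey1, Nrarp and Dtx1. In lymphoid progenitors Notch1 signalling directs cells to the T lineage and away from the B lineage, while Notch2 acts later, in marginal zone B cells. PLCγ1 and PLCγ2, the enzymes deleted here, cut a membrane lipid into the messengers IP3 and diacylglycerol downstream of antigen and cytokine receptors.

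The genes lie on 7 mouse chromosomes (GRCm38, GENCODE M21). Notch1 is at chr2:26457903-26516663 on the minus strand, Nrarp at chr2:25180758-25183339 on the plus strand, Notch2 at chr3:98013527-98150361 on the plus strand and Hey1 at chr3:8663359-8667256 on the minus strand. Dtx1 is at chr5:120680202-120711927 on the minus strand and Rbpj at chr5:53466152-53657362 on the plus strand. Notch3 (chr17:32120820-32166852), Dtx4 (chr19:12466338-12501454) and Maml1 (chr11:50255634-50292311) are on the minus strand, and Hes1 (chr16:30064384-30067796) is on the plus strand.

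Dtx1 carries the clearest difference between genotypes, so the 250 bases before its RefSeq start site are shown (GRCm38.p6, chr5:120711670-120711919, minus strand, read 5′ to 3′ towards the gene). This stretch lies within the first bases of the longer GENCODE gene model. Capitals mark the GC box letters GGGCGG or their reverse complement CCGCCC, which were matched 3 times, with a shared base in the last pair.

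Dtx1 upstream: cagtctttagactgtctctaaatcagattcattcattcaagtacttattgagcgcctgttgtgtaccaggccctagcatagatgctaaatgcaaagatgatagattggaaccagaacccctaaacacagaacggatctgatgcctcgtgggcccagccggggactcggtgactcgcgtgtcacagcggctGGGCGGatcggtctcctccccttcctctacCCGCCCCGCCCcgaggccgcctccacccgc

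The same letters stand in 32.7% of 32851 mouse promoter windows of 250 bases. The core letters bound by RBPJ, TGGGAA or their reverse complement TTCCCA, were searched in the 300 bases around each start site (250 before and 50 after). Windows were available for 7 of the 10 members (Notch1, Notch2, Notch3, Dtx1, Nrarp, Rbpj and Maml1), and only Rbpj itself held the letters. They stand in 25.6% of all 32851 windows, and the longer form GTGGGAA stands in 6.38%. The 2 Rbpj matches, in capitals, begin 149 and 65 bases before a start site and are shown because they are in the gene of the factor that reads these letters. The first is at chr5:53590185-53590214 and the second at chr5:53590269-53590298, both written on the plus strand.

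Rbpj first match: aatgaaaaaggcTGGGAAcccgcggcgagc
Rbpj second match: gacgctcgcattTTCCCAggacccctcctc

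A match of letters is a description of the window and not a binding site, and a window without them says nothing about the factor.

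Depth differed between the populations. CLP libraries held 4232345 to 33219995 reads on genes (median 16744580), and B cell progenitor libraries held 1479582 to 25057223 (median 7496844). Reads on no gene were 17.9% to 45.2% in CLP libraries and 59.9% to 87.3% in B cell progenitor libraries. These ranges do not overlap, so in every comparison between the populations cell type and this library difference cannot be told apart. Values below are CPM, the reads of a gene relative to the reads on all genes of its library, scaled by TMM within each population. They are listed in the order of replicates 1, 2 and 3. A gene "passed the test" where edgeR's quasi-likelihood test gave a p of 0.05 or less after Benjamini-Hochberg adjustment over all genes tested (15209 in CLPs, 15001 in B cell progenitors) and a log2 fold change of at least 0.5 in size. All 10 members had enough reads to be tested in both populations. Plcg2 passed as lower in Plcg1-/-Plcg2-/- relative to Plcg1+/+Plcg2+/+ in CLPs (log2 fold change -1.10, adjusted p = 0.0375) and in B cell progenitors (log2 fold change -1.35, adjusted p = 0.00251). Plcg1 did not pass in any comparison. Its log2 fold changes relative to Plcg1+/+Plcg2+/+ were 0.00 (CLPs) and -0.22 (B cell progenitors) in Plcg1-/-Plcg2+/+ and 0.39 and 0.46 in Plcg1-/-Plcg2-/-, and counts over the whole gene do not check a deletion of single floxed exons. Libraries labelled Plcg1-/- also differed from the others in sex-linked RNA (for Xist in B cell progenitors, a log2 fold change of 4.57 between Plcg1-/-Plcg2-/- and Plcg1+/+Plcg2+/+), so donor sex and Plcg1 genotype cannot be told apart. The Plcg1-/-Plcg2+/+ and Plcg1-/-Plcg2-/- groups share this sex-linked pattern.

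Among the CLP libraries, 4 stood apart from the other 8: Plcg1+/+Plcg2+/+ replicate 1 and replicate 2 of each of the 3 deficient genotypes. They were picked out from the data, by the highest Flt3 and Gata3. Flt3, the receptor that marks early lymphoid progenitors, was at 189 to 735 CPM in these 4, at 25.6 to 115 CPM in the other 8 and at 28.9 to 112 CPM in the 12 B cell progenitor libraries. Gata3, a T cell and innate lymphoid factor, was at 65.1 to 125, 2.18 to 53.9 and 1.45 to 20.5 CPM in the same order. The summed level of 9 innate lymphoid and NK markers was 646 to 979 CPM in the 4 libraries and 75.0 to 319 CPM in the other 8. The summed level of 9 B lineage markers was 1459 to 4777 CPM in the 4, 2511 to 6594 CPM in the 8 and 2408 to 6911 CPM in B cell progenitors, and these ranges overlapped. Whether a sort or a label was exchanged among the CLP libraries was not tested, and all 12 are called CLPs here as they were labelled. Each CLP result below is therefore given with and without the 4 libraries where they change it.

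Compared per kilobase of exon (RPKM over RefSeq exons), the members spanned a wide range in both populations. Hes1, a transcriptional repressor induced by Notch, had the highest median, 32.3 RPKM in CLPs and 44.0 RPKM in B cell progenitors. Notch1 followed with medians of 29.4 and 20.9 RPKM. Notch2 had medians of 24.1 and 12.9 RPKM, and Maml1, a Mastermind coactivator, 13.9 and 14.9 RPKM. Dtx4, a Deltex E3 ubiquitin ligase, had medians of 7.72 and 4.59 RPKM. Nrarp, a small feedback inhibitor of the Notch complex, had 6.92 and 8.07 RPKM, and Rbpj had 6.39 and 5.49 RPKM. At the low end were Dtx1 (1.53 and 1.42 RPKM), the repressor Hey1 (0.423 and 0.328 RPKM) and Notch3 (0.340 and 0.293 RPKM).

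The order of medians differed in B cell progenitors, where Maml1 stood above Notch2, and Nrarp and Rbpj above Dtx4. In each population, neighbours in that population's own order overlapped in their ranges over the 12 libraries. Notch1 and Dtx1 did not overlap: the lowest Notch1 library was at 20.2 RPKM in CLPs and 13.2 RPKM in B cell progenitors, while the highest Dtx1 library was at 4.77 and 4.06 RPKM. Hey1 and Notch3 were measured from few reads, and Hey1 had 0 reads in 2 B cell progenitor libraries, where a count of 0 allows up to 3 reads, or 1.25 and 1.05 CPM (counting error only).

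**Figure D1:**
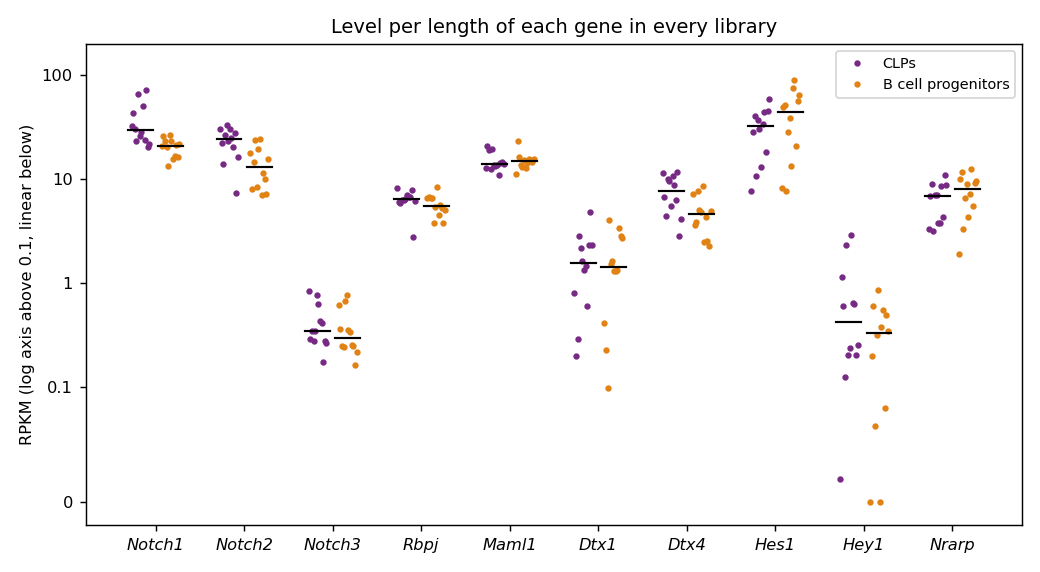
Level of each of the 10 genes in RPKM (symmetric log axis) in each of the 12 CLP and 12 B cell progenitor libraries, with points for libraries and bars for medians. Hes1 and Notch1 had the highest medians in both populations, and Hey1 and Notch3 lay below 1 RPKM in most libraries.

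The question of the genotype comparison was which genes change when 1 or both PLCγ enzymes are missing. Dtx1, which encodes a Deltex E3 ubiquitin ligase that regulates Notch and is itself induced by Notch, was the only member that passed the test in any comparison between genotypes. In B cell progenitors it was at 13.7, 11.4 and 10.7 CPM in Plcg1+/+Plcg2+/+ mice (mean 11.9 ± 1.55, SD, n = 3). It was at 1.65, 0.893 and 0.400 CPM in Plcg1-/-Plcg2-/- mice (mean 0.982 ± 0.631, SD, n = 3), from 5, 21 and 3 reads. All 3 double-deficient libraries lay below all 3 control libraries. The log2 fold change was -3.75 (SE 0.49), with an adjusted p of 0.00459 by edgeR's quasi-likelihood test. In this comparison 0.893% of the 15001 genes passed, and 0.673% passed as lower, while 1 of the 10 members passed. The call was kept under each of the 13 alternatives run, with log2 fold changes between -4.04 and -3.39. The alternative that only drops the fold change minimum could not lose it.

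In the single-deficient B cell progenitors the group means of Dtx1 lay between these levels. It was at 16.5, 6.24 and 6.60 CPM in Plcg1-/-Plcg2+/+ mice (mean 9.79 ± 5.84, SD, n = 3), a spread that overlapped the controls. It was at 5.23, 5.38 and 5.44 CPM in Plcg1+/+Plcg2-/- mice (mean 5.35 ± 0.111, SD, n = 3), below all 3 control libraries and above all 3 double-deficient ones. Neither single deficiency passed relative to Plcg1+/+Plcg2+/+. For Plcg2 deficiency the log2 fold change was -1.16 (SE 0.43), with an unadjusted p of 0.0200 and an adjusted p of 0.919 by edgeR, where 2.84% of genes had an unadjusted p under 0.05. For Plcg1 deficiency it was -0.29 (SE 0.40). Genes that passed made up 0.0467% and 0.06% of the 15001 tested in these comparisons.

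Relative to Plcg1-/-Plcg2+/+, Dtx1 in double-deficient B cell progenitors passed, with a log2 fold change of -3.46 (SE 0.49) and an adjusted p of 0.0323 by edgeR. In this comparison 0.213% of genes passed and 0.153% passed as lower. This call was lost without Plcg1-/-Plcg2+/+ replicate 1 (log2 fold change -2.77, adjusted p = 0.0769), without Plcg1-/-Plcg2-/- replicate 2 (-3.50, adjusted p = 0.205) or replicate 3 (-3.10, adjusted p = 0.174), and with the 2 groups fitted alone (adjusted p = 0.225). Relative to Plcg1+/+Plcg2-/-, the log2 fold change was -2.59 (SE 0.51) with an adjusted p of 0.105. With the replicate number as a block, which pairs the samples in this comparison by the correlation of their deviations, the log2 fold change was -2.57 with an adjusted p of 0.0313. Here 0.153% of genes passed without the block.

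Dtx1 in CLPs had the same order of group means. It was at 9.42, 19.1 and 9.28 CPM in Plcg1+/+Plcg2+/+ mice (mean 12.6 ± 5.63, SD, n = 3) and at 11.3, 8.42 and 6.63 CPM in Plcg1-/-Plcg2+/+ mice (mean 8.79 ± 2.37). It was at 5.36, 5.82 and 2.42 CPM in Plcg1+/+Plcg2-/- mice (mean 4.53 ± 1.85) and at 3.19, 0.776 and 1.16 CPM in Plcg1-/-Plcg2-/- mice (mean 1.71 ± 1.30), from 67, 9 and 28 reads. The double-deficient libraries lay below all control libraries and all Plcg1-/-Plcg2+/+ libraries, and overlapped Plcg1+/+Plcg2-/-.

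None of these CLP differences passed the test with edgeR. For Plcg1-/-Plcg2-/- relative to Plcg1+/+Plcg2+/+ the log2 fold change of Dtx1 was -2.83 (SE 0.55), with an unadjusted p of 0.000273 and an adjusted p of 0.108. In that comparison 14 of 15209 genes passed (0.0921%). DESeq2 gave an adjusted p of 3.31e-05 for the same difference. Leaving out Plcg1-/-Plcg2-/- replicate 1 gave -3.66 with an adjusted p of 0.0303, and leaving out the 4 libraries that stood apart gave -2.70 with an adjusted p of 0.161. Relative to Plcg1-/-Plcg2+/+ it was -2.34 (adjusted p = 0.346, or 0.118 with the replicate block), where 0.0263% of genes passed without the block. Relative to Plcg1+/+Plcg2-/- it was -1.42 (adjusted p = 0.589, or 0.329 with the replicate block), where 0.0526% of genes passed without the block. The Dtx1 log2 fold changes of the single deficiencies relative to Plcg1+/+Plcg2+/+ were -1.41 for Plcg2 (SE 0.52, unadjusted p = 0.0192, adjusted p = 0.939) and -0.49 for Plcg1. In these comparisons 0% and 0.00658% of genes passed, and 3.92% had an unadjusted p under 0.05 in the first.

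Libraries that lay wholly below the controls were common among all genes. In CLPs 7.75% of genes had all 3 double-deficient libraries below all 3 controls, and 4.89% had them below all 3 Plcg1-/-Plcg2+/+ libraries. In B cell progenitors these shares were 10.8% below the controls, 11% below Plcg1-/-Plcg2+/+ and 7.97% below Plcg1+/+Plcg2-/-. For Plcg1+/+Plcg2-/- below the controls they were 4.58% in CLPs and 3.97% in B cell progenitors. The double-deficient effect on Dtx1 was not shown to differ between the populations: the difference of its log2 fold changes (B cell progenitors minus CLPs) was -0.92 (SE 0.73), and no gene of the 17212 tested passed that comparison (0%).

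No marker of another cell type passed between double-deficient and control B cell progenitors. The summed level of 9 myeloid markers in B cell progenitors was 1577 to 4773 CPM in Plcg1+/+Plcg2+/+ and 2811 to 7612 CPM in Plcg1-/-Plcg2-/-, and all 9 had positive log2 fold changes (median 0.99), of which 0 passed the test and 3 had an unadjusted p under 0.05, where 12.3% of all genes did. All 9 were also positive in Plcg1-/-Plcg2+/+ (median 0.96) and Plcg1+/+Plcg2-/- (median 0.68) B cell progenitors, which share these controls. In double-deficient B cell progenitors the log2 fold changes were also positive for 6 of 6 plasmacytoid dendritic cell markers (median 0.79), 6 of 8 T cell markers (median 0.74) and 8 of 9 innate lymphoid and NK markers (median 0.53). The summed level of the 9 B lineage markers was 3689 to 4783 CPM in Plcg1+/+Plcg2+/+ and 2604 to 6911 CPM in Plcg1-/-Plcg2-/-, with 0 of 9 passing and 2 with an unadjusted p under 0.05 (median log2 fold change 0.15). The summed level of 8 CLP markers was 1656 to 2361 CPM in Plcg1+/+Plcg2+/+ and, by replicate, 1405, 5073 and 3169 CPM in Plcg1-/-Plcg2-/- B cell progenitors. The markers of a list come from the same libraries, so their signs are not independent of each other. The part of these marker lists in the Dtx1 result was not tested. In sorted bulk samples, fewer Dtx1-expressing cells and less Dtx1 RNA per cell cannot be told apart.

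Il2ra, which encodes CD25, the IL-2 receptor α chain that marks pre-B cells and early T cells, stood in the list of other Notch-responsive genes and was the one gene of that list to pass a genotype comparison. In B cell progenitors it was at 74.3, 74.3 and 48.1 CPM in Plcg1+/+Plcg2+/+ mice and at 36.3, 69.3 and 31.6 CPM in Plcg1-/-Plcg2+/+ mice. It was at 28.2, 39.1 and 10.9 CPM in Plcg1+/+Plcg2-/- mice and at 8.59, 2.93 and 8.53 CPM in Plcg1-/-Plcg2-/- mice. The double-deficient libraries lay below those of each other genotype. Among all genes, 10.8% had all 3 of them below the controls, 11% below Plcg1-/-Plcg2+/+ and 7.97% below Plcg1+/+Plcg2-/-. By flow cytometry, the paper reports almost no CD25+ pre-B cells in double-deficient recipients and fewer of them in Plcg1+/+Plcg2-/- ones. Fewer Il2ra-expressing cells and less Il2ra RNA per cell cannot be told apart here. The log2 fold change of Il2ra relative to Plcg1+/+Plcg2+/+ was -3.40 (SE 0.51, adjusted p = 0.00818 by edgeR), where 0.893% of genes passed. Il2ra passed in all 13 alternatives run, of which the drop of the fold change minimum could not lose the call.

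Relative to Plcg1-/-Plcg2+/+ the log2 fold change of Il2ra was -2.89 (SE 0.50, adjusted p = 0.0465), where 0.213% of genes passed. That call was lost when any 1 of the 6 libraries was left out, with adjusted p between 0.0518 and 0.239. In CLPs Il2ra was at 23.9, 77.9 and 31.5 CPM in Plcg1+/+Plcg2+/+ mice and at 7.85, 11.03 and 5.99 CPM in Plcg1-/-Plcg2-/- mice. The log2 fold change of Il2ra was -2.41 with an adjusted p of 0.0832, and without the 4 libraries that stood apart it was -2.98 with an adjusted p of 0.0262. Il2ra was included with earlier results of these data known.

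**Figure D2:**
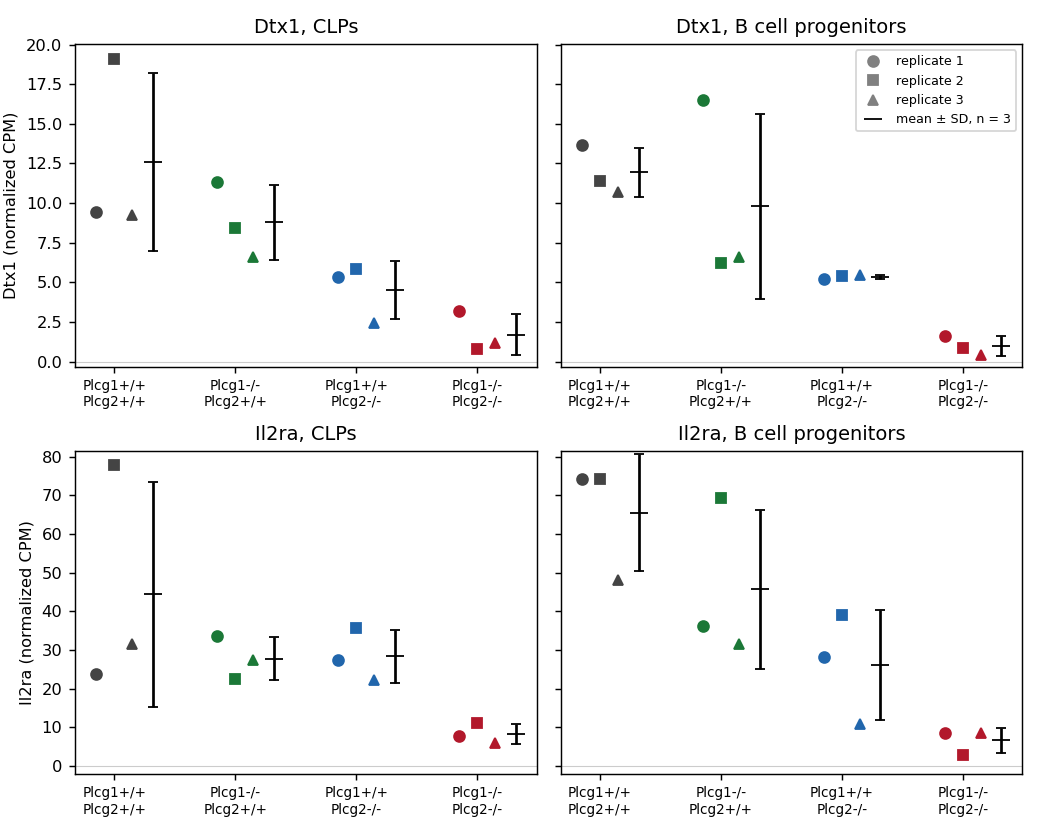
Dtx1 and Il2ra in CPM for each library by genotype, in CLPs and B cell progenitors, with points for mice and bars for the mean ± SD of 3. The 3 Plcg1-/-Plcg2-/- libraries had Dtx1 at 0.400 to 1.65 CPM in B cell progenitors, below the 3 libraries of each other genotype.

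Dtx4 showed no such difference. Its B cell progenitor levels were 11.8 to 25.4 CPM in Plcg1+/+Plcg2+/+ mice and 18.5 to 37.7 CPM in Plcg1-/-Plcg2-/- mice, with a log2 fold change of 0.55 (SE 0.44). In CLPs the same comparison gave 0.24 (SE 0.49). In Plcg1-/-Plcg2+/+ B cell progenitors, Dtx4 was at 25.7 to 40.0 CPM, above all 3 controls, with a log2 fold change of 0.87 (SE 0.44, adjusted p = 0.467). All 3 libraries lay above the controls for 8.47% of genes in that comparison.

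The receptors did not pass the test in any comparison between genotypes. Notch1, the receptor that commits progenitors to the T lineage, was at 204, 155 and 204 CPM in Plcg1+/+Plcg2+/+ B cell progenitors (mean 188 ± 28.2, SD, n = 3). It was at 195, 129 and 255 CPM in Plcg1-/-Plcg2+/+, at 221, 149 and 162 CPM in Plcg1+/+Plcg2-/- and at 198, 246 and 221 CPM in Plcg1-/-Plcg2-/- B cell progenitors. The groups overlapped. The log2 fold changes of Notch1 relative to Plcg1+/+Plcg2+/+ were 0.04, -0.08 and 0.24, each with an SE of 0.23, and adjusted p of 0.940, 0.956 and 0.679 by edgeR.

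In CLPs Notch1 varied more within a genotype than between genotypes. It was at 691, 190 and 205 CPM in Plcg1+/+Plcg2+/+ (mean 362 ± 285, SD, n = 3), at 220, 610 and 250 CPM in Plcg1-/-Plcg2+/+, at 268, 475 and 227 CPM in Plcg1+/+Plcg2-/- and at 308, 397 and 288 CPM in Plcg1-/-Plcg2-/- mice. The highest library of each genotype was 1 of the 4 that stood apart. The log2 fold changes were -0.01, -0.16 and -0.13 (each SE 0.52), with adjusted p of at least 0.965. Without the 4 libraries they were 0.22, 0.29 and 0.58, each of the opposite sign, and the first, which was near 0, also changed sign under other settings with all 12 libraries.

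Notch2 ranged from 76.6 to 341 CPM in CLPs and from 75.2 to 255 CPM in B cell progenitors, and the ranges of the genotypes overlapped. Its log2 fold changes relative to Plcg1+/+Plcg2+/+ lay between 0.30 and 0.68 in the 6 comparisons, with SEs of 0.40 to 0.49. Notch3 was low, from 3 to 140 reads a library. In CLPs Notch3 was at 1.38, 2.18 and 2.10 CPM in Plcg1+/+Plcg2+/+ mice and at 2.21 to 6.66 CPM in the 9 deficient libraries, each above the 3 controls. In B cell progenitors it was at 2.00, 1.29 and 1.72 CPM in Plcg1+/+Plcg2+/+ mice and at 1.93 to 6.25 CPM in the deficient libraries.

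No Notch3 difference passed. Its largest log2 fold change was in Plcg1-/-Plcg2+/+ B cell progenitors, 1.43 (SE 0.52, unadjusted p = 0.0177, adjusted p = 0.467), where 9.93% of genes had an unadjusted p under 0.05. In CLPs the Notch3 log2 fold changes were 0.97 without PLCγ1, 1.07 without PLCγ2 and 1.06 without both (each SE 0.52), against 3.04%, 3.2% and 5.85% of genes whose 3 libraries all lay above the controls. These 3 comparisons share the same control libraries.

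Rbpj and Maml1, the nuclear partners of the cut receptor, did not pass in any comparison. Rbpj was at 34.3 to 49.0 CPM in Plcg1-/-Plcg2-/- CLPs and at 39.0, 39.1 and 39.6 CPM in Plcg1-/-Plcg2-/- B cell progenitors. The latter lay above all 3 Plcg1+/+Plcg2+/+ libraries (32.0, 22.5 and 29.5 CPM), with a log2 fold change of 0.49 (SE 0.24, adjusted p = 0.438). All 3 libraries lay above the controls for 8.93% of genes in that comparison. Maml1 was at 60.6 to 112 CPM in CLPs and at 62.5 to 127 CPM in B cell progenitors. Its 1 difference with an unadjusted p under 0.05 was in CLPs, between Plcg1-/-Plcg2-/- and Plcg1+/+Plcg2-/- (log2 fold change 0.46, SE 0.19, unadjusted p = 0.0367, adjusted p = 0.624), where 7.54% of genes had one.

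The targets Hes1, Hey1 and Nrarp did not pass in any genotype comparison either. In B cell progenitors Hes1 was at 31.0, 83.1 and 94.5 CPM in Plcg1+/+Plcg2+/+ mice and at 12.2, 72.1 and 76.3 CPM in Plcg1-/-Plcg2-/- mice (log2 fold change -0.35, SE 0.74). In the same libraries Nrarp was at 14.5, 23.7 and 24.7 CPM and at 4.96, 25.4 and 30.7 CPM (log2 fold change 0.00, SE 0.53). Hey1 was at 0.200, 1.18 and 0.825 CPM and at 0, 0.468 and 1.47 CPM (log2 fold change -0.09, SE 1.17), from at most 11 reads. In CLPs the double-deficient log2 fold changes were -0.70 for Hes1 (SE 0.66), -0.31 for Nrarp (SE 0.48) and 0.58 for Hey1 (SE 1.33). Each of these differences was within the spread between mice.

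**Figure D3:**
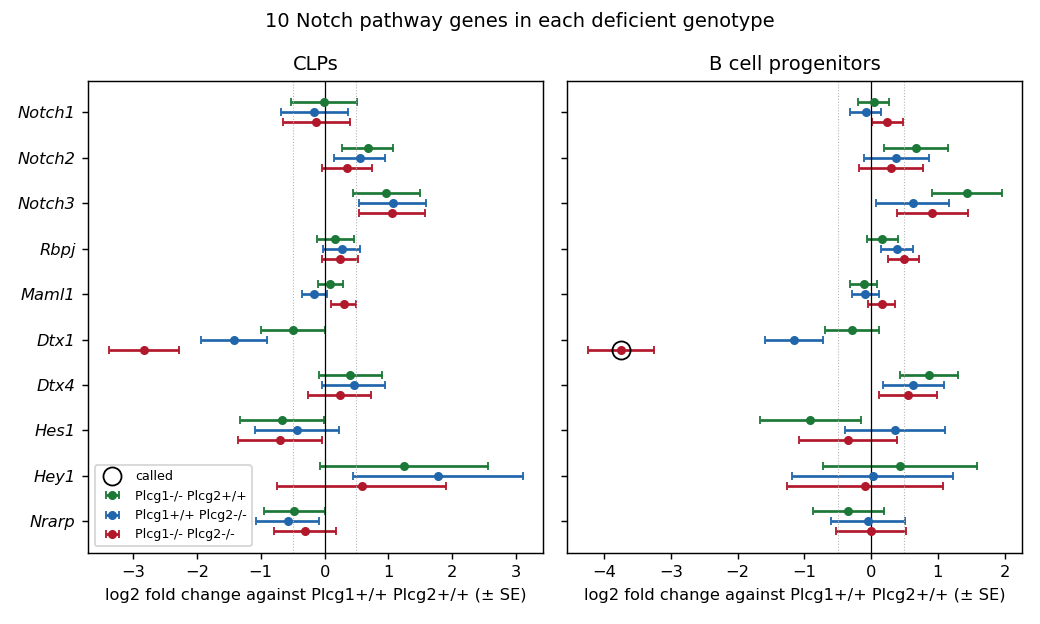
Log2 fold change ± SE of the 10 genes in the 3 deficient genotypes relative to Plcg1+/+Plcg2+/+, in CLPs and B cell progenitors, with rings for values that passed the test. The ringed value is Dtx1 in Plcg1-/-Plcg2-/- B cell progenitors, at -3.75.

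The targets varied with the replicate number, a pattern noticed after the values were seen. Hes1 was lowest in replicate 1 in 8 of 8 groups, at 11.3 to 31.0 CPM, while replicates 2 and 3 were at 40.0 to 136 CPM. Nrarp was also lowest in replicate 1 in 8 of 8 groups (4.96 to 14.5 CPM, against 9.74 to 32.7 CPM), and Hey1 in 7 of 8. Dtx4 went the other way and was highest in replicate 1 in 7 of 8 groups. Notch1 was lowest in replicate 1 in 2 groups and highest in 3.

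The sources used here do not say what replicate numbers share. The summed level of the 9 myeloid markers in replicate 1 was 7612 to 9355 CPM in the 6 libraries of the deficient genotypes, but 2770 CPM in the Plcg1+/+Plcg2+/+ CLP library and 1577 CPM in the Plcg1+/+Plcg2+/+ B cell progenitor library, where Hes1 was also lowest of its group. The part of these markers in the Hes1 levels was not tested. With replicates 2 and 3 alone, Hes1 and Nrarp still did not pass in any genotype comparison.

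**Figure D4:**
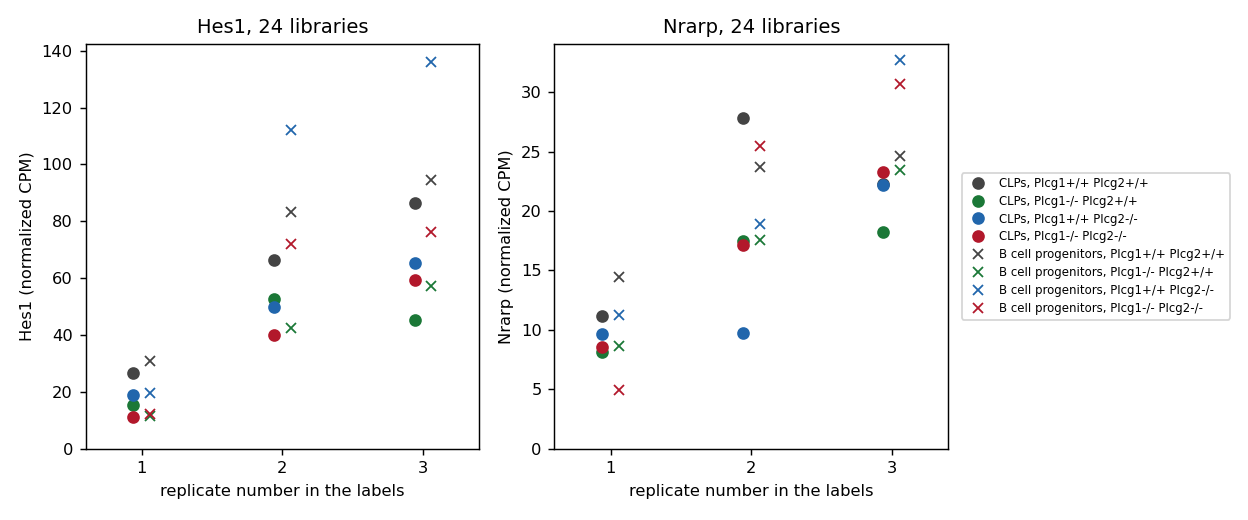
Hes1 and Nrarp in CPM in the 24 libraries, by replicate number, with symbols for population and colours for genotype. Replicate 1 held the lowest Hes1 and the lowest Nrarp value in each of the 8 groups.

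Relative to CLPs, B cell progenitors had lower Notch1, Notch2 and Dtx4 when averaged over the 4 genotypes in 1 fit of the 24 libraries. The share of reads on no gene also differed between the populations without overlap, so cell type and this library difference cannot be told apart here. Mean Notch1 was 344 CPM in CLPs and 195 CPM in B cell progenitors, scaled over all libraries, with a log2 fold change of -0.85 (SE 0.22, adjusted p = 0.0061 by edgeR). Mean Notch2 was 239.5 and 147 CPM (log2 fold change -0.73, SE 0.24, adjusted p = 0.0267). Mean Dtx4 was 39.7 and 25.1 CPM (log2 fold change -0.73, SE 0.25, adjusted p = 0.0326). Each of the 3 was lower in the B cell progenitors of 11 of the 12 mice. With the mouse as a block all 3 still passed (adjusted p = 0.0225 for Notch1, 0.0159 for Notch2 and 0.0192 for Dtx4).

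So 3 of 10 members passed, all lower, where 14.4% of the 17212 genes passed and 5.98% passed as lower. The median log2 fold change was -0.20 over the members and 0.08 over all genes. These calls rested on the 4 CLP libraries that stood apart. Without them 0 of the 10 members passed, and the log2 fold changes were -0.38 for Notch1 (adjusted p = 0.0643), -0.59 for Notch2 (adjusted p = 0.161) and -0.56 for Dtx4 (adjusted p = 0.168). Leaving out 1 mouse with such a library (Plcg1+/+Plcg2+/+ replicate 1, or replicate 2 of any deficient genotype) left only Notch1 passing.

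Within single genotypes 0 members passed between the populations with edgeR or DESeq2, where 3.5% of genes did in the control genotype, 3.78% without PLCγ1, 3.21% without PLCγ2 and 3.24% without both. For Notch1 the log2 fold change was -0.96 in the control genotype (unadjusted p = 0.0390, adjusted p = 0.277 by edgeR) and -0.95 in Plcg1-/-Plcg2+/+ (unadjusted p = 0.0414, adjusted p = 0.172), where 16.1% and 26.5% of genes had an unadjusted p under 0.05. None of the targets passed between the populations. Hes1 was higher in the B cell progenitors of 10 of 12 mice (log2 fold change 0.41, SE 0.38, adjusted p = 0.425), and with the mouse as a block its log2 fold change was 0.32 (adjusted p = 0.0373), below the 0.5 needed to pass. Nrarp was higher in 9 of 12 mice (log2 fold change 0.27). Hey1 was lower in 8 of 12 mice (log2 fold change -1.12, SE 0.65, adjusted p = 0.200), and without the 4 CLP libraries that stood apart its log2 fold change was 0.22. The coactivator Maml1 was higher in 8 mice, and Dtx1 was higher in 5 mice and lower in 7.

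The libraries that stood apart were high in Notch1. Notch1 was at 397 to 691 CPM in these 4, at 190 to 308 CPM in the other 8 CLP libraries and at 129 to 255 CPM in the 12 B cell progenitor libraries. Hey1 was at 1.52 to 6.94 CPM in the 4 and at 0.0476 to 1.54 CPM in the 8, which overlapped only at their ends. Notch2, Notch3, Dtx1, Dtx4, Hes1, Nrarp, Rbpj and Maml1 also overlapped between the 4 and the 8. These are descriptions of libraries picked from the data and carry no test. Between the populations 7 of 9 innate lymphoid and NK markers passed as lower in B cell progenitors, where 5.98% of all genes did, and 0 of 9 B lineage markers passed. With the mouse as a block 2 of the 9 innate lymphoid and NK markers passed, and without the 4 libraries 0 passed. Their part in the Notch1 difference was not tested.

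**Figure D5:**
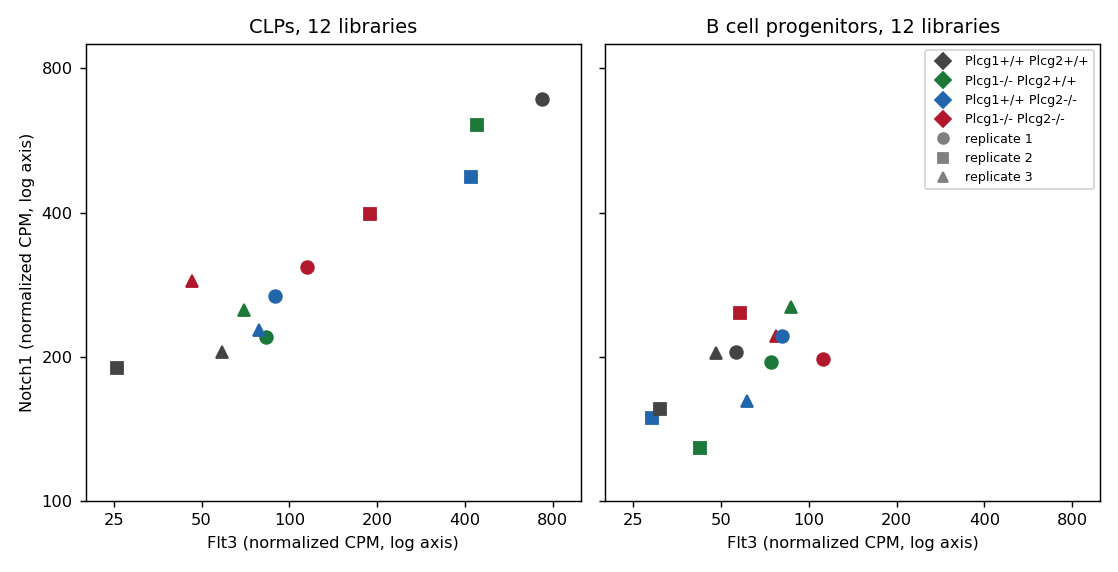
Notch1 against Flt3 in CPM (log axes) for each library, in a panel for CLPs and a panel for B cell progenitors. In the CLP panel 4 libraries, 1 of each genotype, lie at 397 CPM Notch1 or more and at 189 CPM Flt3 or more, apart from the other 8.

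The rest of the pathway was read from 6 lists with 53 genes: ligands and Notch4, ligand-activating ligases, receptor glycosylation, receptor cleavage, turnover and trafficking, and nuclear coactivators and corepressors. Of these, 52 were tested in CLPs and 50 in B cell progenitors, and 0 passed the test in any comparison between genotypes in the edgeR fit of the 4 genotypes. Between the double-deficient and control mice, 2 genes (CLPs) and 7 genes (B cell progenitors) had an unadjusted p under 0.05, as did 7.52% and 12.3% of all genes tested. Dtx3, another Deltex family gene, had a log2 fold change of 0.79 in these B cell progenitors (SE 0.21, adjusted p = 0.133). Dtx3 passed there with DESeq2 (adjusted p = 0.0229), with the 2 groups fitted alone (adjusted p = 0.0240) and with the replicate block (adjusted p = 0.0276). The ligase gene Neurl1b passed with the block alone (log2 fold change -0.74, adjusted p = 0.0340). Replicate numbers did not pair the double-deficient and control B cell progenitors by the correlation of deviations (-0.062, 0.288 and -0.061).

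Between the populations, 13 of 52 pathway genes passed in the mean of the 4 genotypes, 12 as lower and 1 as higher in B cell progenitors, where 14.4% of all genes passed and 5.98% passed as lower. With the mouse as a block 10 passed as lower and 1 as higher, and the calls of Mfng and Tle3 were lost because their log2 fold changes came just under 0.5 in size. The ligand genes Jag2 (log2 fold change -1.12, adjusted p = 0.0121) and Dll1 (-1.56, adjusted p = 0.0150) were lower. So was Mib2, a ligase that acts on Notch ligands (-0.64, adjusted p = 0.000478), and Mfng, a Fringe glycosyltransferase (-0.50, adjusted p = 0.0175). Of 10 genes for receptor cleavage, Psenen, a γ-secretase subunit (-0.50, adjusted p = 3.32e-06), and Furin, the protease that matures the receptor (-0.99, adjusted p = 0.00199), were lower, and Aph1b, another γ-secretase subunit, was higher (0.53, adjusted p = 0.0401).

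Of 10 turnover genes, Dtx3 (-0.74, adjusted p = 0.00313) and Numbl (-0.56, adjusted p = 0.0491) were lower. The 17 nuclear genes included Spen (-0.52, adjusted p = 0.00304), Maml3 (-0.82, adjusted p = 0.0102) and Tle3 (-0.50, adjusted p = 0.0184), which were lower. Spen and Tle3 encode corepressors and Maml3 a coactivator. Without the 4 CLP libraries that stood apart, 4 of 52 passed, all lower, with Mib2, Furin and Psenen among them. Leaving out each mouse in turn gave 7 to 18 lower and 0 or 1 higher genes.

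Among 12 other Notch-responsive genes, 10 were tested. The T lineage regulators Tcf7 and Gata3 (log2 fold changes of -2.31 and -3.31, adjusted p = 0.00362 and 0.00339) and the growth regulator Myc (-0.51, adjusted p = 0.0204) passed as lower in B cell progenitors than in CLPs. Gata3 is 1 of the genes by which the 4 CLP libraries were picked, and without those libraries 0 of the list passed, with log2 fold changes of -0.64 for Tcf7, -1.07 for Gata3 and -0.33 for Myc (adjusted p = 0.142, 0.174 and 0.212). With the mouse as a block the call of Myc was lost (adjusted p = 0.0503), while Cr2 (log2 fold change 0.63, adjusted p = 0.0283) and Cdkn1a (-0.69, adjusted p = 0.0252) passed. Between genotypes, Hes6 and Cr2 are named after their values were seen. Hes6, a relative of Hes1, had a log2 fold change of -0.85 in Plcg1-/-Plcg2-/- CLPs relative to Plcg1+/+Plcg2+/+ (SE 0.16, adjusted p = 0.105) and of -0.68 in B cell progenitors (SE 0.18, adjusted p = 0.134). Cr2, which encodes complement receptor CD21, had -1.53 in B cell progenitors (SE 0.44, adjusted p = 0.172).

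The level of Notch1 was set against that of each other member across libraries, 9 relations in each population and 18 in all. In the 12 B cell progenitor libraries the highest correlation was with Rbpj (Pearson's r = 0.71, permutation p = 0.0102, adjusted p = 0.184, Spearman's rho = 0.66, permutation p = 0.0231, adjusted p = 0.217). Without the 2 libraries farthest from the median of Notch1, r was 0.53 (permutation p = 0.116). Taken as deviations from the genotype means, r was 0.80 (permutation p = 0.00195, adjusted p = 0.0351). The deviations within a genotype depend on each other but were permuted as if they were free, so this p is likely too small. None of the 18 relations passed the correction on the levels themselves.

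Over all 12 CLP libraries the highest Pearson correlation of Notch1 was with Hey1 (r = 0.64, permutation p = 0.0262, adjusted p = 0.236). Without the 4 libraries that stood apart, the r of Notch1 and Hey1 was -0.21. In the 8 left after this split, which was picked from the data, Notch1 and Dtx1 had r = -0.75 (exact permutation p = 0.0323, adjusted p = 0.194) and rho = -0.79 (exact permutation p = 0.0279, adjusted p = 0.168). In the same 8, Notch1 and Rbpj had r = 0.69 (exact permutation p = 0.0247, adjusted p = 0.194) and rho = 0.62 (exact permutation p = 0.115, adjusted p = 0.323). The points share sequencing depth and cell make-up within a library, and 0 of these relations passed the correction. The 8 libraries span the 4 genotypes, and the permutation did not keep genotypes apart, so differences between genotypes enter these values. Over all 12 CLP libraries the r of Notch1 and Dtx1 was -0.10 (permutation p = 0.748). Taken as deviations from the genotype means, it was -0.12 (permutation p = 0.715). The 4 remaining libraries are too few for a value.

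Genes whose log levels lay nearest to Notch1 or Dtx1 over the 12 B cell progenitor libraries are given as a description. Nearest to Notch1 were Arfgef1, Tapbpl, Foxo3, Phf21a and Plekhm2 (r = 0.93 to 0.90). Nearest to Dtx1 were Rasal1, Cox18, Arhgap17, Colgalt1 and Hdac5 (r = 0.93 to 0.90). The 12 points of each share depth and cell make-up within a library. No such list is given for CLPs, because of the libraries that stood apart.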

How the data were processed

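CLPs and B cell progenitors were sorted from 3 recipients per genotype. Poly(A) RNA libraries were sequenced on a NextSeq 500, and the authors aligned the reads with STAR (version 2.5.0a in the submitters' processing notes) to mm10 with RefSeq genes. The authors deposited 1 table of whole-number read counts per gene for each library, without normalization. The counting program is not given in the sources used here. The tables' closing lines (no feature 17.9% to 45.2% of reads in CLPs and 59.9% to 87.3% in B cell progenitors, ambiguous at most 1.44%) were left out. No molecular identifiers are described in the sources used here.

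From the counts, genes were filtered with filterByExpr, scaled by TMM and tested with edgeR 4.0.16 (quasi-likelihood, R 4.3.3) in 1 fit per population of 12 libraries, and between populations in 1 fit of 24 libraries. RPKM used RefSeq exon lengths. The SE is the fold change divided by the root of its F statistic. Benjamini-Hochberg adjustment ran over all genes tested. The scripts were tested on simulated data. Permutation tests were two-sided and used 100000 resamples, or all orders for 8 libraries.

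The same mouse gave the CLP and the B cell progenitor library of a replicate number, so the mouse is a block between populations by design. The correlation of deviations between the populations was over 0.1 in each of the 3 pairs only in Plcg1-/-Plcg2-/- (0.348, 0.171 and 0.200). It was -0.084, 0.209 and -0.028 in Plcg1+/+Plcg2+/+, 0.238, -0.350 and -0.073 in Plcg1-/-Plcg2+/+ and 0.530, -0.048 and 0.248 in Plcg1+/+Plcg2-/-. Between genotypes, numbers paired the samples where the correlation of deviations was over 0.1 in each of the 3 pairs: Plcg1-/-Plcg2-/- with Plcg1-/-Plcg2+/+ in CLPs (0.385, 0.645 and 0.370), and with Plcg1+/+Plcg2-/- in CLPs (0.236, 0.535 and 0.341) and in B cell progenitors (0.314, 0.260 and 0.207). No replicates were copies of each other (chi-square per degree of freedom of at least 8.28).

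The members, lists and tests were chosen with earlier results of these data known. All 10 members are described, with full values for those that passed and for Notch1. Other members are given by range, with those with an unadjusted p under 0.05 named, and other pathway genes by counts with those that passed named. Some genes that the rules would name are counted but not reported here by name. Alternatives were RLE size factors, keeping all genes with a read, the adjusted p without a fold change minimum, DESeq2 1.42.0, the replicate block, the 2 groups alone and each library or mouse left out. Leaving out the 4 CLP libraries or all replicates 1, and the pathway, target and marker lists under each alternative, were chosen after seeing the data. p-values measure the spread between recipients.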

Additional observations from a re-analysis of the deposited data

How the results depend on the processing

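Of 229 counts of members that passed under an alternative, 213 stayed within 1.5 times the first count. Most of these 213 were counts of 0 that stayed 0, so the total does not measure how stable the calls were. For Plcg1-/-Plcg2-/- relative to Plcg1+/+Plcg2+/+ in CLPs the count went from 0 to 1 (Dtx1) with the replicate block (adjusted p = 0.0464), with DESeq2 and without the double-deficient replicate 1 (leave-one-out 0 to 1). Replicate numbers did not pair the samples of that comparison by the correlation of deviations (0.079, -0.130 and 0.272). Relative to Plcg1-/-Plcg2+/+ in CLPs it went from 0 to 1 with DESeq2 (Dtx1, adjusted p = 0.00235). Relative to Plcg1-/-Plcg2+/+ in B cell progenitors it went from 1 to 0 with the 2 groups alone and was 0 to 1 with each library left out. Relative to Plcg1+/+Plcg2-/- in B cell progenitors it went from 0 to 1 (Dtx1) with the replicate block, with DESeq2 (adjusted p = 0.00132) and with only replicates 2 and 3 (adjusted p = 0.0445). Between populations the count of 3 became 1 to 3 with each mouse left out and 0 without the 4 CLP libraries with the highest Flt3 and Gata3. Among the relations of Notch1 in B cell progenitors the count went from 0 to 1 (Rbpj) with deviations from the genotype means, where the p is likely too small. The replicate block changed no other call of a member, and called 2 of the other pathway genes (Dtx3 and Neurl1b) in Plcg1-/-Plcg2-/- B cell progenitors; Dtx3 was also called with DESeq2 and with the 2 groups alone. The cause of these changes was not tested, and fits with fewer libraries have fewer degrees of freedom.

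The sign of small Notch1 log2 fold changes turned. In Plcg1-/-Plcg2+/+ CLPs Notch1 was at 0.0012 with RLE, 0.010 without a filter, 0.0018 with DESeq2, 0.22 without the 4 CLP libraries and 1.14 with only replicates 2 and 3 (each library left out: -0.63 to 0.85). In Plcg1+/+Plcg2-/- CLPs Notch1 was at 0.29 and 0.81 under the last pair of settings (-0.56 to 0.69), and in Plcg1-/-Plcg2-/- CLPs at 0.58 and 0.83 (-0.41 to 0.73). In B cell progenitors with each library left out, Notch1 was at -0.22 to 0.26 for Plcg1-/-Plcg2+/+ and at -0.31 to 0.024 for Plcg1+/+Plcg2-/-.

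Counts over all genes moved more. For Plcg1-/-Plcg2-/- relative to Plcg1+/+Plcg2+/+ in B cell progenitors 134 genes passed, against 550 with the replicate block, 444 with DESeq2, 238 with the 2 groups alone and 50 to 119 with each library left out. Relative to Plcg1-/-Plcg2+/+ 32 passed, against 802 with DESeq2, 100 with the block, 0 with the 2 groups alone and 0 to 58 with each library left out. Dtx1 rested on 3 to 21 reads in double-deficient B cell progenitors, and Hey1 and Notch3 on few reads in most libraries, so small differences in them were not detectable at this depth.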
